A study of Mus musculus with 20 samples.

Results

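The mitochondrial ribosomal protein genes were examined in brain tissue of mice given lipopolysaccharide (LPS) or nicotine. They were taken as every gene whose symbol starts with Mrpl or Mrps followed by a number, without pseudogenes marked -ps. This gave 78 genes of 55487 in the prefrontal cortex table and the same number, 78 of 57180, in the hippocampal table, with 49 Mrpl and 29 Mrps symbols in each. RNA was measured by poly(A)-selected sequencing in wild-type C57/BL6 mice aged 2 to 6 months. LPS is a component of the bacterial outer membrane that sets off inflammation throughout the body. Male mice received 5 mg/kg LPS by the intraperitoneal route (4 prefrontal cortex libraries) or saline at 0.9% (4 libraries). Nicotine, which activates nicotinic receptors for acetylcholine, was given at a dose of 0.2 mg/kg (6 hippocampal libraries), with 0.9% saline as its control (6 libraries), and the sex of these mice and the route are not stated. Tissue was dissected 24 hours after treatment in every group. The titles call the libraries biological replicates; nothing else ties them to separate animals, so each p reflects variation among these libraries.

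Mitochondria carry their own ribosome, which makes the few proteins encoded by mitochondrial DNA, all of them parts of the respiratory chain and ATP synthase. Its ribosomal RNAs come from mitochondrial DNA, while every one of its proteins is encoded in the nucleus and imported. The large subunit holds the catalytic centre and the exit tunnel, and the small subunit reads the mRNA. Some of these proteins have bacterial homologues and others are found only in mitochondria. Neurons depend heavily on respiration, and inherited defects of several of these proteins cause brain or heart disease in humans. Symbols do not always match the place of a protein: Mrps30 and Mrps18a are found in the large subunit in ribosome structures, and Mrps36 is a subunit of the 2-oxoglutarate dehydrogenase complex and of neither ribosomal subunit.

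The group in the title of 4 of the 8 cortical libraries goes against the group in the name of their count column, and the column name was followed. Under these groups Lcn2, an acute-phase gene, ran from 254 to 367 CPM (a count divided by the normalised size of its library) in LPS libraries and from 0.676 to 13.5 CPM in saline libraries. The cortical libraries held 36371084 to 46106526 counts and the hippocampal ones 51969343 to 68196280, and the tissues formed separate batches, so each was tested alone. The summed level of 10 striatal markers varied within both groups, at 467 to 1978 CPM in LPS libraries and 365 to 1549 CPM in saline libraries. Of these 10, 0 were called and 0 lay below 0, with a median log2 fold change of 0.50. Of 6 tested hippocampal neuron markers 1 was lower and 2 higher, with sums of 193 to 352 CPM in LPS and 136 to 199 CPM in saline libraries. Of 7 cortical excitatory neuron markers 1 was lower and 0 higher. Their sums were 1839 to 2311 CPM in LPS and 1575 to 2243 CPM in saline libraries. The summed level of 6 microglial markers was 191 to 270 CPM in LPS libraries and 300.4 to 327 CPM in saline libraries, with no overlap; P2ry12 and Tmem119 were among those called lower, and Csf1r was not called (−0.03). Of 8 oligodendrocyte markers 4 were lower, among them Ugt8a (8.11 CPM in LPS and 32.4 CPM in saline libraries) and Mog (log2 fold change −1.10), and the summed level was 2557 to 3452 CPM in LPS and 2881 to 3858 CPM in saline libraries. Of 6 astrocyte markers 3 were lower and 1 higher, with sums of 3311 to 4316 CPM in LPS and 3741 to 4010 CPM in saline libraries. Of 6 endothelial markers 3 were higher, among them Cdh5 (1.34), with sums of 195 to 237 CPM in LPS and 151 to 195 CPM in saline libraries. Of 9 blood leukocyte markers 3 could be tested and 2 were higher, with sums of 4.22 to 8.64 CPM in LPS and 1.36 to 4.18 CPM in saline libraries. In hippocampus 2 nicotine and 2 saline libraries had over 1000 CPM of Ttr, a choroid plexus gene, and 1 nicotine library, Sample 8N, had 10.5% of its counts in mitochondrially encoded mRNAs. With the striatal markers as a covariate 24 members were lower and 7 higher in prefrontal cortex, as without it, and 30 of the 31 calls were shared; the part of the other markers in the members' results was not tested.

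Many of these genes start beside another gene, and some hold motifs of regulators of mitochondrial biogenesis before their start. The sequences below show both features: windows of 150 bases before the RefSeq start of 6 genes (assembly GRCm38.p6), 2 of them from gaps between head-to-head genes. Each runs 5′ to 3′ on the strand of the gene named. Capitals mark GCGCANGCG, a motif of the nuclear respiratory factor NRF1, on either strand. Mrpl22, higher after LPS, is chr11:58171514-58171663 on the plus strand. Mrpl17, lower after LPS, is chr7:105811088-105811237 on the minus strand. Mrpl12 and Mrpl45, called in neither direction, are chr11:120484487-120484636 and chr11:97315566-97315715, both on the plus strand. Mrps12, whose window lies toward Sars2, is chr7:28741822-28741971 on the minus strand, and Mrpl2, whose window lies toward Klc4, is chr17:46646071-46646220 on the plus strand.
Mrpl22: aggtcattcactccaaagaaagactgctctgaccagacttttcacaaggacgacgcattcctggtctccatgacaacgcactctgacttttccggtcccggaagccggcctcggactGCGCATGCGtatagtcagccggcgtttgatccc
Mrpl17: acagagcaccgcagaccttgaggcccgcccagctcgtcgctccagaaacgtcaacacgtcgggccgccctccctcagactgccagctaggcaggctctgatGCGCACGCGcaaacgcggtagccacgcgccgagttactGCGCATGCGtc
Mrpl12: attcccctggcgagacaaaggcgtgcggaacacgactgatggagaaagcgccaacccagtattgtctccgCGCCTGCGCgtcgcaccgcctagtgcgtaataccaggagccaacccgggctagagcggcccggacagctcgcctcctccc
Mrpl45: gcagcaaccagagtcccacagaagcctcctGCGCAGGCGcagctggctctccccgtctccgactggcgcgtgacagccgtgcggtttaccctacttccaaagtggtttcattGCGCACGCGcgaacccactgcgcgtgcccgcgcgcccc
Mrps12: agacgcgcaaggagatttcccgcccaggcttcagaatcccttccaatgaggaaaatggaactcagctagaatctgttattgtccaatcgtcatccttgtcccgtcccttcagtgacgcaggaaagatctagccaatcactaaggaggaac
Mrpl2: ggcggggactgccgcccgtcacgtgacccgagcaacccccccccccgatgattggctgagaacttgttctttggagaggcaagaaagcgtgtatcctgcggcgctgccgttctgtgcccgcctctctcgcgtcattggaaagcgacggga

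RefSeq promoter windows, 250 bases before to 50 after the start, were found for 69 of the 78 genes. The NRF1 motif was present in 16 of the 69 (23.2%), against 9.63% of 17492 protein-coding genes with a window and 7.03% of all 27025 genes with one. CCGGAAGT, a motif of the ETS factor GABPA (also called NRF2), was present in 12 (17.4%), against 5.69% of protein-coding genes. AAGATGGCG, a motif of YY1, was present in 8 (11.6%), against 2.14% of protein-coding genes. GGGCGG, bound by SP1, was present in 34 (49.3%), against 49.2% of protein-coding genes. Both strands were searched, and the 4 motifs do not contain each other. A match says only that the letters are there.

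In prefrontal cortex more mitochondrial ribosomal protein genes were lower after LPS than were higher, by moderate amounts, and both subunits held genes of each kind. Of 78 genes, 75 had enough counts to test, 24 were lower in LPS libraries, 7 were higher, and 44 passed the test in neither direction (edgeR quasi-likelihood test, Benjamini-Hochberg adjusted p under 0.05). Among all 17760 genes tested, 19.7% were called lower and 21.5% higher, so the members held a larger share of lower calls (24 of 75) and a smaller share of higher calls (7 of 75). The median log2 fold change was −0.13 over the members and 0.01 over all genes tested. In 25 members all LPS libraries lay below all saline libraries, and in 7 all lay above; over all genes the shares were 17.9% and 19.2%. Of the 66 tested members without an exonic overlap over 15% with another gene, 22 were lower and 5 higher. With groups taken from the titles instead, 0 members were lower and 0 higher, and among the 4 libraries whose labels agree 19 were lower and 4 higher. In bulk tissue, fewer cells of a type and less RNA per cell cannot be told apart.

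**Figure D1:**
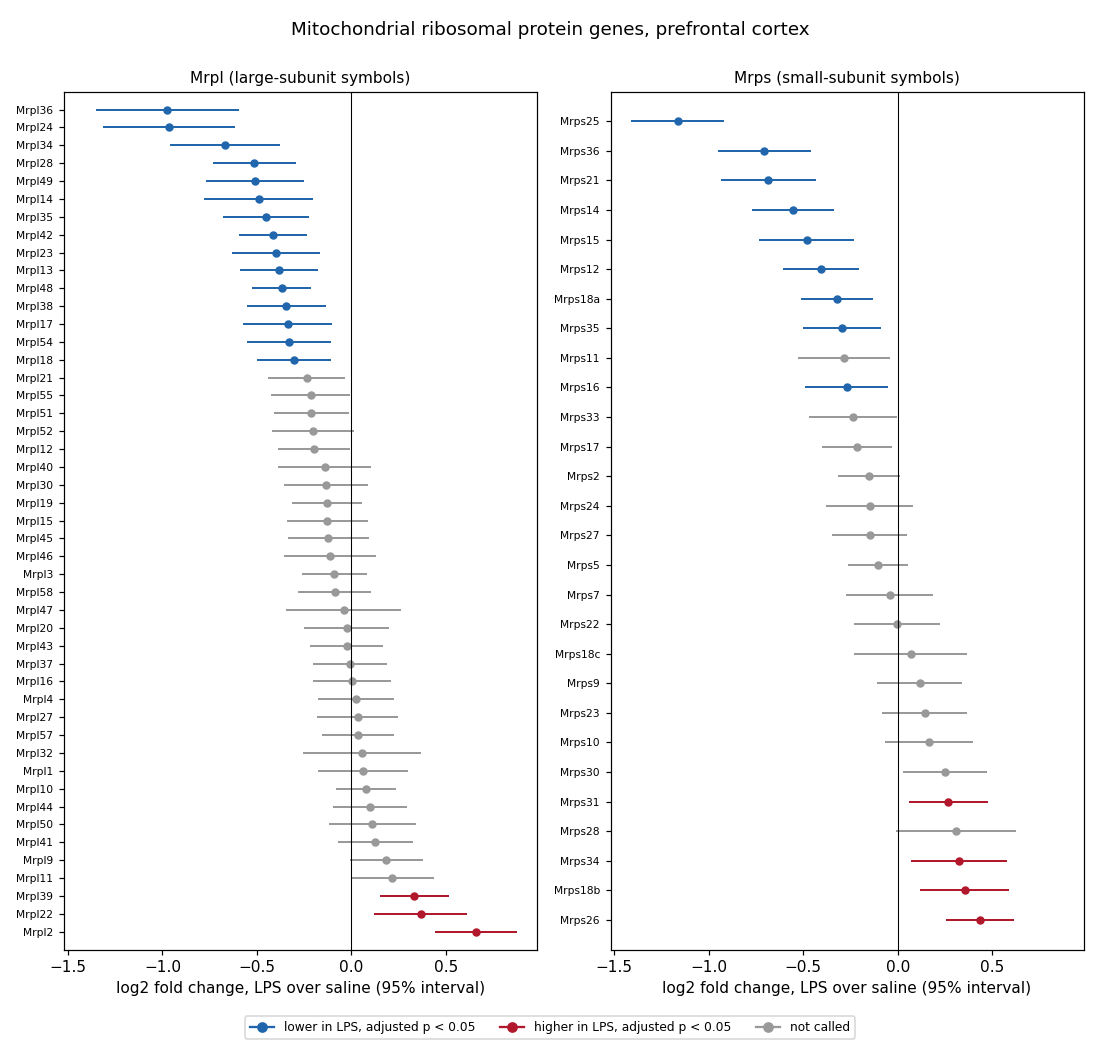
Log2 fold change of each tested gene in prefrontal cortex, LPS over saline, with its 95% interval; Mrpl symbols on the left and Mrps symbols on the right, sorted from the largest fall. Blue marks the 24 genes called lower and red the 7 called higher; Mrps25 (−1.17) and Mrpl36 (−0.97) lead their panels and Mrpl2 (0.66) ends the left one.

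The counts and medians of the large and small subunits were close, and the difference between them was not tested. Of 47 Mrpl genes tested, 15 were lower and 3 higher, with a median of −0.13, and of 28 Mrps genes 9 were lower and 4 higher, with a median of −0.15. Placing the proteins by ribosome structures instead gave 16 lower and 3 higher of 49 large-subunit genes, and 7 lower and 4 higher of 25 small-subunit genes. By symbol, 31.9% of Mrpl genes were lower and 6.38% higher, and 32.1% of Mrps genes were lower and 14.3% higher. By structure, the shares were 32.7% and 6.12% in the large subunit and 28% and 16% in the small subunit. Over all genes tested 19.7% were called lower and 21.5% higher. The summed level of Mrpl genes was 1319, 1265, 1286 and 1385 CPM in LPS libraries (Samples 2L, 4L, 5L and 7L), against 1400, 1526, 1405 and 1376 CPM in saline libraries (Samples 1L, 3L, 6L and 8L). The summed level of Mrps genes was 699, 679, 698 and 757 CPM in the LPS libraries, against 754, 828, 754 and 737 CPM in the saline libraries. In both sums LPS Sample 7L lay above saline Sample 8L, and in the Mrps sum it also lay above saline Samples 1L and 6L, so the groups overlapped, and saline Sample 3L stood highest. The ratio of the Mrpl sum to the Mrps sum was 1.85 ± 0.0243 in LPS libraries and 1.86 ± 0.0103 in saline libraries (SD, n = 4 each), and its ranges overlapped.

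**Figure D2:**
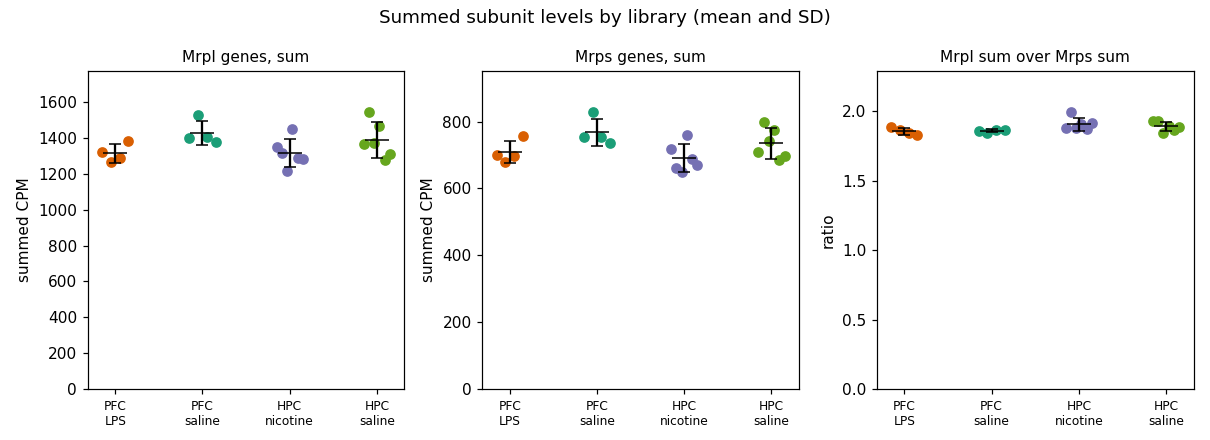
Summed CPM of Mrpl genes, summed CPM of Mrps genes, and their ratio, 1 point a library, with the mean and SD of each group; axes start at 0. Summed levels lie between 1216 and 1543 CPM for Mrpl and 648 and 828 CPM for Mrps, and the ratio between 1.83 and 1.99.

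The genes were also split by whether the ribosomal protein name marks a bacterial homologue. Mrps18b in the small subunit and Mrps18a in the large subunit have no such mark and are counted as mitochondria-specific, although both belong to the family of a bacterial ribosomal protein. Of 15 tested small-subunit genes with a bacterial homologue, 5 were lower and 0 higher at adjusted p under 0.05 (7 lower and 0 higher at unadjusted p under 0.05), with a median of −0.15. Of 10 small-subunit genes counted as mitochondria-specific, 2 were lower (Mrps25 and Mrps35) and 4 higher (Mrps18b, Mrps26, Mrps31 and Mrps34), with a median of 0.07. In the large subunit, 10 of 29 genes with a bacterial homologue were lower and 2 higher, and 6 of 20 mitochondria-specific genes were lower and 1 higher. Among all genes tested, 19.7% were called lower and 21.5% higher. The same shares were 33.3% and 0% of the 15 genes, and 20% and 40% of the 10 genes, of the small subunit. They were 34.5% and 6.9% of the 29 genes, and 30% and 5% of the 20 genes, of the large subunit. Leaving out 1 library at a time, Mrps25 and Mrps26 kept their calls in all 8 fits, and Mrps35, Mrps18b, Mrps34 and Mrps31 in 4, 5, 3 and 1 of them. These groups are small and the difference between them was not tested.

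The largest fall was that of Mrps25, a mitochondria-specific small-subunit protein (chromosome 6, 92169525 to 92184033, mm10, minus strand). It had 23.5, 18.9, 17.3 and 17.96 CPM in LPS libraries, against 39.7, 48.0, 43.8 and 42.8 CPM in saline libraries. Every LPS library lay far below every saline one, and the log2 fold change was −1.17 ± 0.11 (SE; edgeR adjusted p = 2.16e-05). Of its exonic bases, 69.8% are also exonic in Nr2c2 on the opposite strand, and Nr2c2 was at 126 CPM in LPS and 135 CPM in saline libraries (adjusted p = 0.208). How counts were split between the genes is not given in the sources used here.

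Mrpl36, a small large-subunit protein with a bacterial homologue (chromosome 13, 73328513 to 73332178, plus strand), was next. It had 11.4, 7.44, 6.05 and 7.63 CPM in LPS libraries, against 15.1, 15.98, 17.7 and 15.1 CPM in saline libraries. The groups did not overlap, LPS Sample 2L stood closest to the saline libraries, and the log2 fold change was −0.97 ± 0.17 (SE; edgeR adjusted p = 0.00106).

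Mrpl24, which sits near the mouth of the exit tunnel (chromosome 3, 87919506 to 87923672, plus strand), had 22.3, 13.7, 13.3 and 15.4 CPM in LPS libraries, against 28.2, 34.9, 34.1 and 29.2 CPM in saline libraries. Again Sample 2L was the highest LPS library and still below all saline libraries. Its log2 fold change was −0.97 ± 0.16 (SE; edgeR adjusted p = 0.000686). It shares 26.3% of its exonic bases with Rrnad1 on the opposite strand, which moved the other way without passing the test (19.97 CPM in LPS and 16.4 CPM in saline libraries, adjusted p = 0.0586).

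Mrps36, the dehydrogenase subunit that the symbol rule brings in (chromosome 13, 100735955 to 100744659, minus strand), had 12.7, 9.92, 9.73 and 10.7 CPM in LPS libraries, against 18.2, 18.4, 16.9 and 16.9 CPM in saline libraries. The groups did not overlap, and the log2 fold change was −0.71 (edgeR adjusted p = 0.000512). Mrps21, a small-subunit protein with a bacterial homologue (chromosome 3, 95862634 to 95871519, minus strand), had 20.9, 16.3, 17.9 and 20.6 CPM in LPS libraries, against 27.9, 35.4, 29.9 and 28.7 CPM in saline libraries. It fell by 0.68 on the log2 scale without overlap (edgeR adjusted p = 0.000712). Mrpl34, a short large-subunit protein (chromosome 8, 71464959 to 71465747, plus strand), had 14.1, 9.95, 9.34 and 11.7 CPM in LPS libraries, against 17.5, 18.9, 18.1 and 17.0 CPM in saline libraries. It fell by 0.67, also without overlap (edgeR adjusted p = 0.00201).

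Mrps14 (chromosome 1, 160195215 to 160202170, plus strand), in the head of the small subunit, had 16.1, 15.5, 16.6 and 17.9 CPM in LPS libraries, against 22.3, 27.1, 24.6 and 23.0 CPM in saline libraries, a log2 fold change of −0.55 (edgeR adjusted p = 0.00103). Mrpl28 (chromosome 17, 26123500 to 26126613, plus strand), a large-subunit protein, had 26.1, 20.2, 21.9 and 26.0 CPM in LPS libraries, against 34.4, 33.1, 34.0 and 33.3 CPM in saline libraries, a log2 fold change of −0.51 (edgeR adjusted p = 0.00183). In both genes the LPS libraries lay below all saline libraries. The other 16 genes called lower fell by between 0.27 and 0.51 on the log2 scale; they were Mrpl49, Mrpl14, Mrps15, Mrpl35, Mrpl42, Mrps12, Mrpl23, Mrpl13, Mrpl48, Mrpl38, Mrpl17, Mrpl54, Mrps18a, Mrpl18, Mrps35 and Mrps16. Mrpl17 and Mrps16 were the called genes whose groups overlapped.

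**Figure D3:**
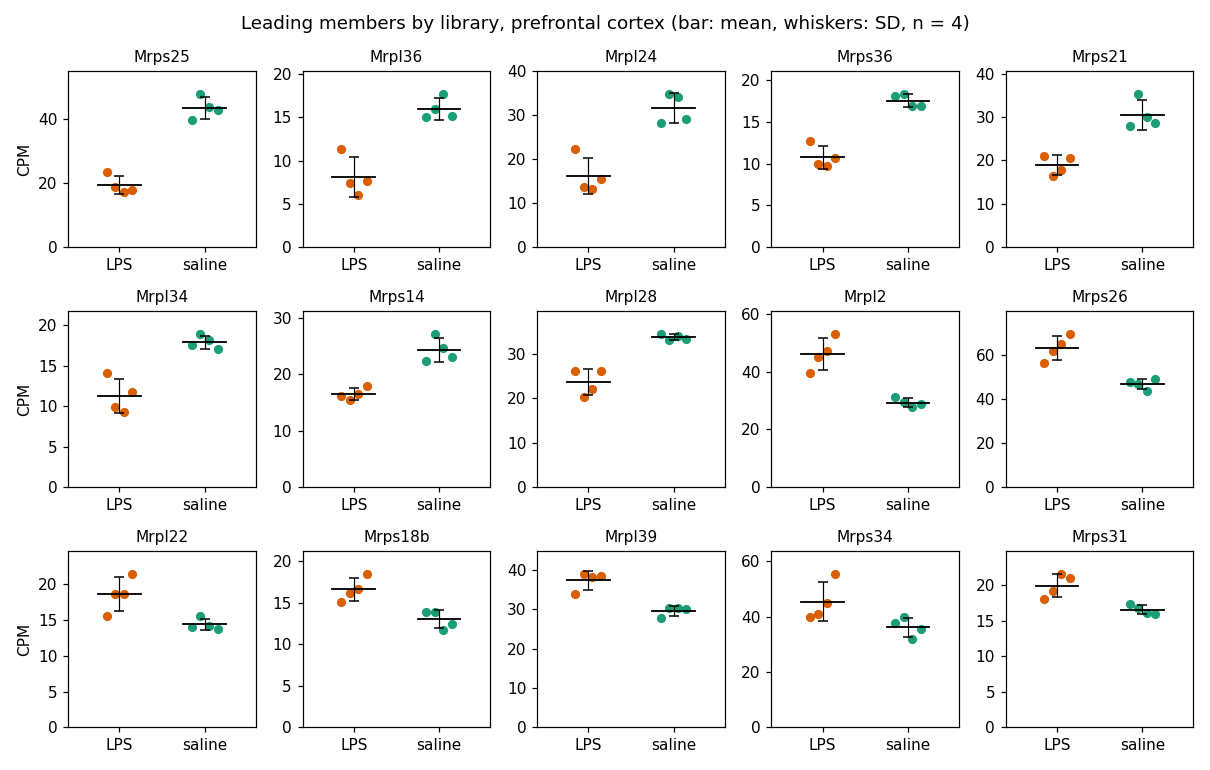
CPM of the 8 genes with the largest falls and the 7 called higher in prefrontal cortex, 1 point a library, LPS left and saline right, with the mean and SD of 4 libraries; axes start at 0. In each of the 15 panels the groups do not overlap, as in Mrps25 (17.3 to 23.5 CPM in LPS, 39.7 to 48.0 CPM in saline).

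Mrpl2 rose most. It is a core protein at the peptidyl transferase centre (chromosome 17, 46646229 to 46650139, plus strand) and had 39.6, 45.0, 47.2 and 53.0 CPM in LPS libraries, against 31.1, 29.5, 27.6 and 28.8 CPM in saline libraries. All LPS libraries stood above all saline libraries, and the log2 fold change was 0.66 ± 0.096 (SE; edgeR adjusted p = 0.000349). Mrps26, a mitochondria-specific small-subunit protein (chromosome 2, 130563742 to 130568695, plus strand), had 56.5, 62.0, 65.1 and 69.6 CPM in LPS libraries, against 47.9, 46.8, 43.6 and 49.0 CPM in saline libraries. It was higher by 0.43 on the log2 scale without overlap (edgeR adjusted p = 0.00145).

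Mrpl22, which lines the exit tunnel (chromosome 11, 58171661 to 58179565, plus strand), had 15.6, 18.6, 18.6 and 21.4 CPM in LPS libraries, against 14.0, 15.5, 14.2 and 13.8 CPM in saline libraries. LPS Sample 2L stood barely above saline Sample 3L, and the log2 fold change was 0.37 (edgeR adjusted p = 0.0197). Mrpl39 (chromosome 16, 84717576 to 84735742, minus strand), a mitochondria-specific large-subunit protein, had 33.8, 38.9, 38.2 and 38.4 CPM in LPS libraries, against 27.8, 30.3, 30.3 and 30.2 CPM in saline libraries, a log2 fold change of 0.33 (edgeR adjusted p = 0.00679). The groups did not overlap, and the lowest library of each, Samples 2L and 1L, stood apart from the other three.

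Mrps18b, Mrps34 and Mrps31, all small-subunit proteins, also rose. Mrps18b had 15.1, 16.2, 16.6 and 18.5 CPM in LPS libraries, against 13.9, 13.9, 11.8 and 12.5 CPM in saline libraries, a log2 fold change of 0.35 (edgeR adjusted p = 0.0186). Mrps34 had 39.9, 41.0, 45.1 and 55.4 CPM in LPS libraries, against 37.8, 39.9, 31.8 and 35.7 CPM in saline libraries, a log2 fold change of 0.32 (edgeR adjusted p = 0.0396). LPS Sample 2L and saline Sample 3L were level to 3 digits in Mrps34. Of the exonic bases of Mrps34, 63.4% are also exonic in Mapk8ip3 on the opposite strand, which was at 525 CPM in LPS and 534 CPM in saline libraries (adjusted p = 0.794). Another overlap, 37.0% of its exonic bases, is with Nme3 on the same strand, which was listed at 0 in prefrontal cortex. Counts of Mrps34 may therefore include reads of these genes or lack some of its own. Mrps31 had 17.99, 19.1, 21.5 and 21.0 CPM in LPS libraries, against 17.4, 16.8, 16.1 and 15.9 CPM in saline libraries, a log2 fold change of 0.27 (edgeR adjusted p = 0.0384). With 1 library left out at a time, Mrps18b kept its call in 5 of 8 fits, Mrpl22 in 4, Mrps34 in 3 and Mrps31 in 1. The count of genes called higher was 11 without LPS Sample 2L, 4 without saline Sample 1L or 6L, and 3 without LPS Sample 7L or saline Sample 8L. Of the 24 lower calls, 19 held in all 8 such fits, as did 3 of the 7 higher calls (Mrpl2, Mrps26 and Mrpl39). Mrpl18 and Mrpl54 kept their lower calls in 7 of the 8 fits each, Mrps35 in 4, Mrpl17 in 3 and Mrps16 in 2.

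Members at the stalk, the decoding centre and the membrane side of the ribosome gave mixed results. Mrpl12, the stalk protein that recruits translation factors and also binds mitochondrial RNA polymerase in humans, had 40.9, 42.6, 48.4 and 51.2 CPM in LPS libraries, against 51.3, 54.8, 53.2 and 50.8 CPM in saline libraries. The groups overlapped, and the log2 fold change of −0.20 missed the threshold (edgeR adjusted p = 0.0802). Mrps12, at the decoding centre, had 30.2, 25.9, 24.3 and 27.7 CPM in LPS libraries, against 34.6, 38.6, 35.2 and 34.9 CPM in saline libraries. It fell by 0.41 without overlap (edgeR adjusted p = 0.00416). Mrpl45, which ties the ribosome to the inner membrane, had 31.4, 26.3, 24.3 and 25.1 CPM in LPS libraries, against 28.0, 30.4, 29.3 and 28.8 CPM in saline libraries (adjusted p = 0.336). Mrpl58, the peptidyl-tRNA hydrolase that rescues stalled ribosomes, averaged 34.7 CPM in LPS and 36.9 CPM in saline libraries (adjusted p = 0.432).

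The 3 Mrps18 paralogues, relatives of a single bacterial small-subunit protein, were not called in a common direction. Mrps18a, in the large subunit, was lower, with 33.4, 29.9, 31.6 and 35.8 CPM in LPS libraries, against 40.3, 44.5, 40.2 and 38.6 CPM in saline libraries (log2 fold change −0.32, edgeR adjusted p = 0.0103). Mrps18b was higher, as given above. Mrps18c had 7.34, 6.29, 6.65 and 6.35 CPM in LPS libraries, against 5.64, 7.49, 6.32 and 5.96 CPM in saline libraries (adjusted p = 0.716). Mrps30, the other large-subunit protein with a small-subunit symbol, had 28.5, 29.8, 34.8 and 35.3 CPM in LPS libraries, against 25.9, 28.8, 28.7 and 24.5 CPM in saline libraries, and its log2 fold change of 0.25 missed the threshold (adjusted p = 0.0642).

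Levels differed widely between members, and most members had a similar place in both tissues. Mrpl53, listed at 0 in prefrontal cortex but counted in hippocampus, was an exception and is described below. On the scale of CPM per kilobase of exon, the highest saline levels in prefrontal cortex were those of Mrps21 (41.2), Mrpl41 (39.6) and Mrps12 (34.5), and in hippocampus those of Mrpl41 (43.2), Mrps21 (36.4) and Mrpl12 (30.8). The lowest tested levels were those of Mrps10 (2.07), Mrps35 (2.29) and Mrpl17 (2.93) in prefrontal cortex, and Mrps35 (2.12), Mrps10 (2.42) and Mrps30 (3.20) in hippocampus. Across the 75 genes tested in both tissues the saline levels had a Spearman correlation of 0.97, a description over genes that are not independent. The log2 fold change after LPS had a correlation of 0.05 with exonic length over the tested members.

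A few members were not counted. Mrpl33 was listed at 0 in all 20 libraries and Mrps6 at 0 in prefrontal cortex, with 4 counts in all in hippocampus. Mrpl53 was listed at 0 in prefrontal cortex and at 19.1 CPM in hippocampal saline libraries. A count of 0 allows up to 0.0651 to 0.0825 CPM in a prefrontal cortex library (3 counts, counting error only). Of the exonic bases of Mrpl53, 88.0% are also exonic in Gm42688 on the same strand, and Mrps6 shares 19.9% with Gm49711 and 10.4% with Slc5a3. Why these genes are listed at 0 was not tested.

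The starts of mitochondrial ribosomal protein genes often lay head to head with another gene. Of 78 members, 33 (42.3%) had a protein-coding neighbour on the opposite strand that starts within 1000 bases, against 10.8% of 21992 protein-coding genes. In 5 of these pairs both genes were called after LPS, and in all 5 they went in opposite directions. Among 171 pairs of other genes with both called, 43.9% went in opposite directions. The count is small and was not tested. Starts were taken in either order, for members and other genes alike. Some members' pairs therefore overlap at their starts instead of facing across a gap, as do Mrpl48 with Rab6a and Mrpl43 with Twnk. Mrpl46 and Mrps11 are each other's neighbour, and both are counted.

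Mrps12 and Sars2 start 172 bases apart. Sars2, the mitochondrial seryl-tRNA synthetase, was at 13.5 ± 1.53 CPM in LPS libraries and 9.01 ± 0.671 CPM in saline libraries (SD, n = 4 each), a log2 fold change of 0.59 (edgeR adjusted p = 0.00229), where Mrps12 fell by 0.41. Mrpl2, higher by 0.66, starts 207 bases from Klc4, a kinesin light chain, which was lower by a log2 fold change of −0.42 (15.9 CPM in LPS and 21.2 CPM in saline libraries, edgeR adjusted p = 0.0141). Mrps34, higher by 0.32, starts 29 bases from Eme2, which encodes a DNA endonuclease subunit and was lower (log2 fold change −0.47, edgeR adjusted p = 0.0256). Mrpl14 (log2 fold change −0.49) and Mrpl48 (−0.37) overlap the starts of Tmem63b (0.20) and Rab6a (0.34), so reads from the shared bases may belong to either gene. The counts of Mrps34 carry a similar doubt, since it shares exonic bases with Mapk8ip3 and Nme3. The NRF1 motif lay in the windows of 4 of 6 members called higher, 3 of 20 called lower and 9 of 40 not called. The GABPA motif lay in 1 of 6, 2 of 20 and 8 of 40 of the same groups, the YY1 motif in 0 of 6, 4 of 20 and 4 of 40, and the SP1 motif in 3 of 6, 12 of 20 and 18 of 40. These shares were not tested against each other.

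**Figure D4:**
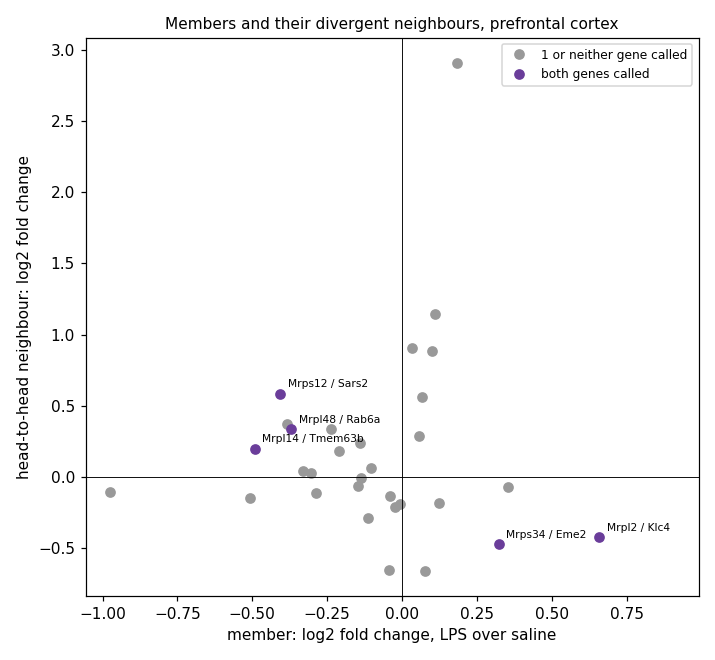
Log2 fold change, LPS over saline in prefrontal cortex, of members (horizontal axis) and of the neighbour that starts head to head with each (vertical axis); purple marks the 5 pairs with both genes called. The purple pairs lie above and left, or below and right, of the zero lines, as with Mrps12 (−0.41) and Sars2 (0.59).

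Other proteins of the mitochondrial ribosome are named without the Mrp prefix. Of 5, 3 were lower and 0 higher (3 and 0 also at unadjusted p under 0.05): Ptcd3 (28.1 CPM in LPS and 34.5 CPM in saline libraries, log2 fold change −0.30), Aurkaip1 (37.1 and 44.0 CPM, −0.24) and Gadd45gip1 (30.6 and 36.2 CPM, −0.24). Dap3, a small-subunit GTPase, was at 62.6 CPM in LPS and 62.1 CPM in saline libraries (adjusted p = 0.918). The median of the 5 was −0.24. Over all genes tested 19.7% were called lower and 21.5% higher.

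Factors that run mitochondrial translation included some of the largest falls. Of 15, 6 were lower (40%) and 2 higher (13.3%), where 19.7% and 21.5% of all genes tested were. The list did not fall as a whole, with a median log2 fold change of −0.02 and 8 of 15 below 0. The 2 called higher were Mtfmt (0.37) and Oxa1l (0.32). Tufm, the elongation factor that brings aminoacyl-tRNA to the ribosome, was at 24.3 ± 4.11 CPM in LPS libraries and 52.8 ± 1.304 CPM in saline libraries (SD, n = 4 each), a log2 fold change of −1.12 (edgeR adjusted p = 2.81e-05). Mrrf, the ribosome recycling factor, was at 8.56 CPM in LPS and 16.8 CPM in saline libraries (−0.97, adjusted p = 0.000256), and Mtrf1l, a release factor, at 4.05 and 6.97 CPM (−0.78, adjusted p = 0.00374). Of 20 genes of mitochondrial aminoacyl-tRNA synthesis, 6 were lower (30%) and 3 higher (15%), with a median of −0.16. The lower ones were led by Aars2 (16.4 CPM in LPS and 29.5 CPM in saline libraries, −0.85), Tars2 (−0.73) and Cars2 (−0.65). The higher ones were Sars2, Iars2 (0.43) and Pars2 (0.40).

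Of 22 assembly factors, 6 were lower and 6 higher (27.3% each), where 19.7% and 21.5% of all genes tested were; Yars2 is counted here and among the synthetases. The methyltransferase Tfb1m, which modifies the small-subunit rRNA, was at 1.79 CPM in LPS and 4.69 CPM in saline libraries (log2 fold change −1.39, edgeR adjusted p = 0.00293), and Mtg2, a GTPase of the large subunit, was at 6.18 CPM in LPS and 9.64 CPM in saline libraries (−0.64, adjusted p = 0.00233). Noa1, a GTPase, was at 26.6 CPM in LPS and 19.6 CPM in saline libraries (0.44, adjusted p = 0.00309). Of 19 genes that copy mitochondrial DNA, transcribe it or process its RNA, 2 were lower (10.5%) and 4 higher (21.1%), so neither share was above that of all genes tested. Among them were the polymerase Polg (40.3 CPM in LPS and 62.5 CPM in saline libraries, −0.63) and the RNase P subunit Prorp (7.47 and 4.77 CPM, 0.65).

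The mRNAs made from mitochondrial DNA are the templates of these ribosomes. Of 13, 0 were lower at adjusted or unadjusted p under 0.05, where 19.7% of all genes tested were called lower. The 2 called higher (15.4%, against 21.5% of all genes tested) were mt-Nd5 (log2 fold change 0.46, edgeR adjusted p = 0.0150) and mt-Nd1 (0.37, adjusted p = 0.0424). In both genes the groups overlapped. Counted levels within the 13 differed widely: in saline libraries mt-Co1 was at 12791 CPM, but mt-Co2 was at 44.8, mt-Co3 at 33.2 and mt-Atp8 at 3.71 CPM. Why some were counted so low was not tested. Of 9 regulators of mitochondrial biogenesis, 1 was lower (11.1%) and 2 were higher (22.2%), near or below the shares of all genes tested (19.7% and 21.5%). Esrra was lower (53.8 CPM in LPS and 67.4 CPM in saline libraries, −0.33). Myc (9.78 and 3.64 CPM, 1.42) and Gabpb1 (26.0 and 19.7 CPM, 0.40) were higher, and in Gabpb1 the groups overlapped. Nrf1 was at 24.6 CPM in LPS and 22.2 CPM in saline libraries (adjusted p = 0.456) and Yy1 at 67.1 and 77.1 CPM (adjusted p = 0.0555).

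In hippocampus no mitochondrial ribosomal protein gene passed the test after nicotine. With 76 of 78 tested, 0 were called in edgeR at adjusted p under 0.05, as were 0 (0%) of all 18873 genes. DESeq2 also called 0 members and 15 genes in all. At unadjusted p under 0.05, 14 members were lower and 0 higher, where 4.46% of all genes were lower and 3.89% higher. The median log2 fold change was −0.09 over the members and 0.003 over all genes, and 66 of 76 members lay below 0. Mrpl and Mrps genes had medians of −0.09 and −0.08. The number lower at unadjusted p ran from 3 without saline Sample 2N to 26 without nicotine Sample 10N, and was 20 without the 4 libraries with over 1000 CPM of Ttr.

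Members share libraries and a scaling factor, so their common sign is not independent evidence. The summed Mrpl level had a lowest value, median and highest value of 1216, 1301 and 1449 CPM in nicotine libraries and 1277, 1368 and 1543 CPM in saline libraries, and the groups overlapped over most of their range. The 95% interval of a member's log2 fold change extended by a median of 0.15 to either side, and 75 of 76 intervals lay within 0.5 of 0, with Mrps18c (−0.64 to −0.04) as the exception.

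**Figure D5:**
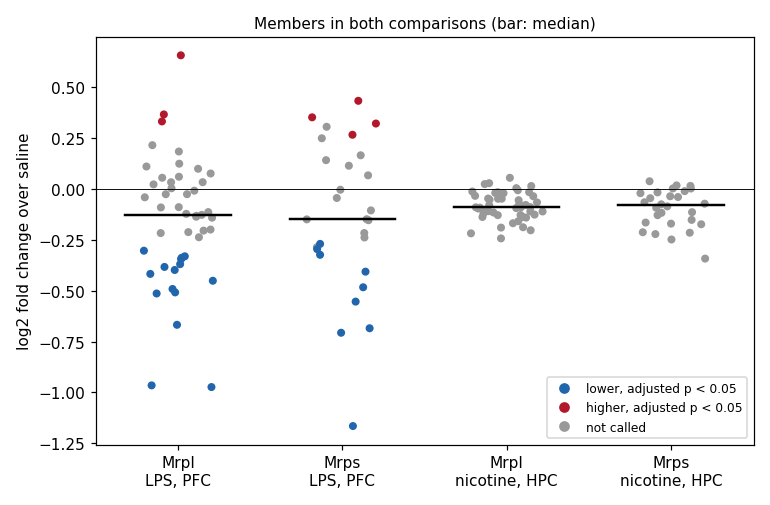
Log2 fold change over saline of each tested gene, by symbol, after LPS in prefrontal cortex (PFC, left) and after nicotine in hippocampus (HPC, right); bars are medians and colours mark calls. After LPS the genes run from −1.17 to 0.66 with medians of −0.13 and −0.15; after nicotine they run from −0.34 to 0.06 with medians of −0.09 and −0.08.

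The smallest p in hippocampus was that of Mrpl53, a mitochondria-specific large-subunit protein. It had a lowest value, median and highest value of 15.2, 15.9 and 17.9 CPM in nicotine libraries and 16.2, 19.0 and 22.4 CPM in saline libraries, a log2 fold change of −0.24 (unadjusted p = 0.00446 in edgeR's test, adjusted p = 0.555). Mrps26 had 31.3, 34.5 and 38.0 CPM in nicotine libraries and 35.0, 39.4 and 42.6 CPM in saline libraries (−0.17, adjusted p = 0.555), and Mrpl9 had 26.8, 31.2 and 35.8 CPM in nicotine libraries and 32.7, 35.5 and 38.6 CPM in saline libraries (−0.19, adjusted p = 0.555). In all 3 the ranges overlapped. The smallest p in the upward direction were those of Mrpl42 (0.06), Mrps15 (0.04) and Mrpl46 (0.03 on the log2 scale), each with an adjusted p over 0.8. Mrps18c had the most negative log2 fold change, −0.34, with 6.75, 7.82 and 10.5 CPM in nicotine libraries and 8.23, 9.71 and 13.9 CPM in saline libraries (adjusted p = 0.575).

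Mrps25 and Mrpl2, the largest fall and the largest rise after LPS, were close to their saline level after nicotine. Mrps25 averaged 31.2 ± 1.80 CPM in nicotine libraries and 31.5 ± 3.20 CPM in saline libraries (SD, n = 6 each; log2 fold change −0.01). Mrpl2 averaged 24.1 ± 1.90 CPM in nicotine libraries and 25.7 ± 1.85 CPM in saline libraries (SD, n = 6 each; −0.09). Of the 24 genes called lower after LPS, 20 were below 0 after nicotine, with log2 fold changes from −0.22 to 0.06 and a median of −0.10. Of the 7 called higher after LPS, 6 were below 0 after nicotine, from −0.17 to 0.02 with a median of −0.09. Of the 44 genes tested but not called after LPS, 39 were below 0 after nicotine, with a median of −0.07. Mrps26 was at 34.6 CPM in nicotine and 38.9 CPM in saline libraries (−0.17, unadjusted p = 0.013 in edgeR's test, adjusted p = 0.555), and Mrps14 at 19.3 CPM in nicotine and 22.4 CPM in saline libraries (−0.21, unadjusted p = 0.0355 in edgeR's test, adjusted p = 0.580). Over the 75 genes tested in both tissues the log2 fold changes after LPS and after nicotine had a Spearman correlation of 0.03, given as a description, since tissue, batch and agent differ together and cannot be told apart.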

How the data were processed

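The authors deposited unnormalised counts, 1 table of genes by libraries for each tissue. The submitters' processing notes name fastp, STAR, featureCounts and DESeq2 without versions, and build mm10. Neither the annotation nor the strand setting of the counting is given in the sources used here, so reads of overlapping genes may be split between them or left out. Hippocampal identifiers were named through GENCODE vM21, also used for exonic lengths, overlaps and coordinates, and sequences came from RefSeq (GRCm38.p6).

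Each tissue was fitted over all genes with edgeR 4.0.16 in R 4.3.3 (TMM factors, filterByExpr with a minimum count of 10, quasi-likelihood test, Benjamini-Hochberg, threshold 0.05). Levels are CPM on TMM-scaled libraries. Alternatives used DESeq2 1.42.0, limma-voom (limma 3.58.1), other factors and filters, exonic-length offsets, striatal or choroid plexus markers as a covariate, a replicate block, other groupings and 1 library left out at a time.

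Members and gene lists were chosen with earlier results of these data known. Genes named were the 8 largest falls and up to 8 largest rises past the threshold, the 3 smallest p in each direction in hippocampus, 9 genes by name, the 3 highest and lowest levels per kilobase, the members not tested, and up to 3 genes a list by p. Head-to-head and overlapping neighbours, single markers, Dap3, Nrf1, Yy1, Noa1, Iars2, Pars2, Mtfmt, Oxa1l, mt-Co1, mt-Co2, mt-Co3 and mt-Atp8 were named after their values were seen. So were the hippocampal values of Mrps14, Mrps25, Mrps26 and Mrpl2. No libraries of 1 group agreed within sampling noise.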

Additional observations from a re-analysis of the deposited data

Results flagged for a closer look

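Among 86 sets of values checked, each a gene or summed level in 1 group of 4 or 6 libraries, 4 had a library whose gap to its nearest neighbour was large for the range of its group. Chance gives such a gap in about 1 in 20 groups. Mrpl39 was flagged in both prefrontal cortex groups, with Sample 2L lowest of the LPS libraries at 33.8 CPM (the next was 38.2 CPM) and Sample 1L lowest of the saline libraries at 27.8 CPM (the next was 30.2 CPM). Mrps12 was highest in saline Sample 3L at 38.6 CPM, where the next was 35.2 CPM. In hippocampus the ratio of summed Mrpl to summed Mrps level was highest in nicotine Sample 8N at 1.99, where the next was 1.91; this library also had the largest share of mitochondrially encoded mRNAs, 10.5%.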

How the results depend on the processing

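In prefrontal cortex 19 to 30 genes were lower and 3 to 11 higher under every alternative except the grouping by title. With groups taken from the titles, 0 were lower and 0 higher, also at unadjusted p under 0.05 in edgeR, the medians were −0.0196 (Mrpl) and −0.0118 (Mrps), and Mrps14 (0.0204), Mrpl28 (0.0177), Mrpl12 (0.104) and Mrps18c (−0.0823) changed sign. The 4 libraries with agreeing labels gave 19 lower and 4 higher, and Mrps18c at −0.0249. Leaving out 1 library at a time gave 20 to 26 lower and 3 to 11 higher. Same-numbered libraries share only a number: their deviations correlated at −0.16 to −0.03 in prefrontal cortex and −0.17 to 0.44 in hippocampus. With a replicate block 21 were lower and 6 higher, and Mrps31 lost its call (adjusted p = 0.0640); in hippocampus the replicate block gave 0. DESeq2 gave 27 and 8, and length offsets 30 and 5.

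In hippocampus 0 members were called under every alternative. Without the libraries with over 1000 CPM of Ttr, Mrpl46 (−0.00308), Mrpl58 (−0.0118), Mrps18b (−0.00975) and Mrps36 (−0.0044) changed sign. Leaving out 1 library at a time gave −0.0181 to 0.0677 for Mrpl46, −0.00700 to 0.0486 for Mrpl58, −0.0632 to 0.0321 for Mrps18a, −0.00836 to 0.0476 for Mrps18b and −0.0266 to 0.0599 for Mrps36. The cause of these changes was not tested. The 95% interval of Mrps18c ran from −0.23 to 0.36 in prefrontal cortex.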
